A study of Mus musculus with 26 samples.

Results

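YFP-positive liver cells taken after 7 days on a DDC diet were compared with the non-parenchymal cells at day 0 of mice kept on chow. The comparison held 5 arrays, chosen by their labels from the 20 arrays with a scanner file used here, in a series of 26 samples. They were 3 of YFP-positive cells at day 7 (arrays 1, 3 and 4) and 2 of day 0 (arrays 1 and 2). The other 6 samples were not analysed here. All samples came from Foxl1-Cre; RosaYFP mice aged 6 to 10 weeks, in which the Foxl1-driven Cre recombinase switches on the yellow fluorescent protein YFP in a cell and its descendants, so the controls carry both alleles too. The day 7 cells were sorted as YFP-positive out of the CD45-negative non-parenchymal cells of mice fed DDC, while the day 0 cells were the whole non-parenchymal fraction on chow, with no sort for YFP or CD45. Diet and sort gate therefore changed together, and their parts in any difference cannot be told apart. The 3 arrays of YFP-negative day 7 cells, sorted from the same CD45-negative cells on the same diet, and the 4 and 2 arrays of YFP-positive cells at days 3 and 14 are given beside this comparison where it differs from them. Nothing in the labels says that the samples of a group came from separate animals, so the p-values measure the spread between samples, which may be technical. That spread was estimated within the 7 groups of all 20 arrays, not only from the 5 arrays compared.

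DDC is a liver toxin that blocks ferrochelatase, the last enzyme of heme synthesis, and the porphyrin that builds up plugs and injures small bile ducts. The liver answers with a ductular reaction, in which cells with bile duct markers multiply around the portal tracts beside stromal and inflammatory cells. Foxl1-Cre marks cells of that reaction in injured mouse liver, where they have been described as bipotential progenitors. Non-parenchymal cells are the liver cells other than hepatocytes, mainly sinusoidal endothelium, Kupffer cells, lymphocytes, stellate cells and cholangiocytes.

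All array values below are log2 signals relative to the 75th percentile of their own array, and a difference is the mean of YFP-positive day 7 arrays minus the mean of day 0 arrays, with its standard error from limma. A probe's value can be set against the same probe on another array, not against another gene. Of 43379 spots, 81.9 to 87.2 percent were well above background on the 3 YFP-positive day 7 arrays, against 89.9 and 91.2 percent on the day 0 arrays. Over all 26665 genes the median difference was -0.35, so the medians of gene lists are given relative to it. All 3 YFP-positive day 7 arrays lay above both day 0 arrays for 11.2 percent of genes and below both for 25.6 percent, and these shares were 17 and 17.8 percent when arrays were centred on their median instead. In bulk samples fewer cells of a type and less RNA per cell cannot be told apart.

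Markers of the 2 gates did not go wholly with the labels. Ptprc, which encodes CD45, read -0.86, 4.03 and 3.92 on YFP-positive day 7 arrays 1, 3 and 4, against 1.46 and -1.81 on the day 0 arrays. Arrays 3 and 4 of the CD45-negative sort were thus above both unsorted arrays, and the YFP-negative day 7 arrays 1, 3 and 4 showed the same split at -0.78, 4.38 and 4.38. The marker lists of leukocytes split in the same way. Over the 22 macrophage markers the list median was 1.67, 4.13 and 3.88 on YFP-positive day 7 arrays 1, 3 and 4, against 3.31 and 0.86 on day 0 arrays 1 and 2. Over the 16 neutrophil markers it was -3.22, 1.33 and 1.23 on YFP-positive day 7 arrays 1, 3 and 4, against -2.59 and -4.68 on day 0 arrays 1 and 2. Every macrophage and neutrophil marker of the lists was well above background on at least 1 array of each group. Arrays 3 and 4 correlated better with each other (0.925 over all genes) than either did with array 1 (0.876 and 0.875). Krt19, the bile duct keratin, read 2.91, 1.42 and 1.41 on YFP-positive day 7 arrays 1, 3 and 4, against -0.12 and -1.50 on the day 0 arrays. All 3 sorted arrays were higher, with a difference of 2.72 ± 1.51 that did not pass (adjusted p = 0.504). The YFP-negative day 7 arrays read -0.45, -1.99 and -3.27 for Krt19, below every YFP-positive one.

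Of 26665 genes, 10 passed an adjusted p under 0.05 by limma (0.0375 percent), 4 of them higher in YFP-positive day 7 cells (0.015 percent) and 6 lower (0.0225 percent). At an unadjusted p under 0.05 there were 3084 genes, 968 higher (3.63 percent) and 2116 lower (7.94 percent). The 4 that rose were Plaur, Il1rn, Steap1 and Tubb6, and each was well above background on all 5 arrays. The split of calls depended on the processing, with 30 of 37 higher under quantile normalization, 9 of 15 when arrays were centred on their median and 1 of 7 with the mean of all probes of a gene. There were 2 calls with normexp background correction, 0 with only the 5 arrays compared and 0 with slides as fixed terms. The number of calls also rested on single arrays, with 1 call without day 0 array 1, 45 without day 0 array 2 and 4 without YFP-positive day 7 array 4.

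Plaur encodes the urokinase receptor, which holds the protease urokinase at the cell surface, where it turns plasminogen into plasmin. Its signal was 1.99, 2.89 and 1.64 on YFP-positive day 7 arrays 1, 3 and 4, against -2.89 and -1.77 on the day 0 arrays. The groups were far apart, and array 1 lay between arrays 3 and 4. Plaur rose by 4.50 ± 0.58 on the log2 scale, or 22.7-fold (adjusted p = 0.00686, probe at chromosome 7, 25260569 to 25260628 on mm9). A second Plaur probe differed by 2.86, and with array 1 as the only YFP-positive array the difference was 4.32 (adjusted p = 0.104, with the spread taken from the other groups). Without day 0 array 1 it was 3.95 and did not pass (adjusted p = 0.153).

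Il1rn encodes the interleukin 1 receptor antagonist, a secreted protein that occupies the receptor without signalling. Its signal was 2.35, 1.01 and 0.55 on YFP-positive day 7 arrays 1, 3 and 4, against -4.47 and -6.91 on the day 0 arrays. Among the YFP-positive day 7 arrays the gene was highest on array 1, and the part of leukocytes was not tested. It rose by 6.99 ± 1.05, the largest of the 4 differences (adjusted p = 0.0257, probe at chromosome 2, 24203035 to 24204055 on mm9), and its second probe differed by 5.46. With normexp background correction the difference was 5.29 and did not pass (adjusted p = 0.119), and it also missed the threshold without any 1 of the 5 arrays (adjusted p between 0.0532 and 0.107).

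Steap1 encodes a membrane protein of the six-transmembrane epithelial antigen family, whose relatives reduce iron and copper. It read 0.69, -0.71 and -1.40 on YFP-positive day 7 arrays 1, 3 and 4, against -6.36 and -5.11 on the day 0 arrays. Again array 1 was the highest and the groups did not overlap. The rise was 5.26 ± 0.82 (38.3-fold, adjusted p = 0.0312, chromosome 5, 5736369 to 5736428 on mm9), and a second probe differed by 4.69. With normexp it was 3.57 (adjusted p = 0.145), and without day 0 array 1 4.63 (adjusted p = 0.383). It also missed the threshold without any 1 of the YFP-positive arrays (adjusted p between 0.0532 and 0.0855).

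Tubb6 encodes a beta tubulin isotype, a building block of microtubules. Its signal was 1.17, 2.42 and 2.07 on YFP-positive day 7 arrays 1, 3 and 4, against -1.24 and -1.25 on the day 0 arrays, which were nearly equal. Array 1 was the lowest of the 3 and still well above day 0. The rise of 3.13 ± 0.42 (8.77-fold, adjusted p = 0.0108, chromosome 18, 67562310 to 67562369 on mm9) was not shared by the other probe under this gene name, which lies on the opposite strand and differed by -0.27. With the mean of all probes of a gene none of the 4 rises passed, at 3.68 for Plaur (adjusted p = 0.0887), 6.23 for Il1rn (0.0547), 4.97 for Steap1 (0.1) and 1.43 for Tubb6 (0.281). Tubb6 also missed the threshold without day 0 array 1 (adjusted p = 0.153) and without YFP-positive array 4 (adjusted p = 0.0532). In the authors' deposited table, which gives linear fold changes against day 0, Plaur was 18.1-fold, Tubb6 9.14-fold and Il1rn 272-fold higher in YFP-positive day 7 cells, each at a false discovery rate of 0 percent. Steap1 was 26.8-fold higher there, at 1.12 percent in the authors' deposited table.

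**Figure D1:**
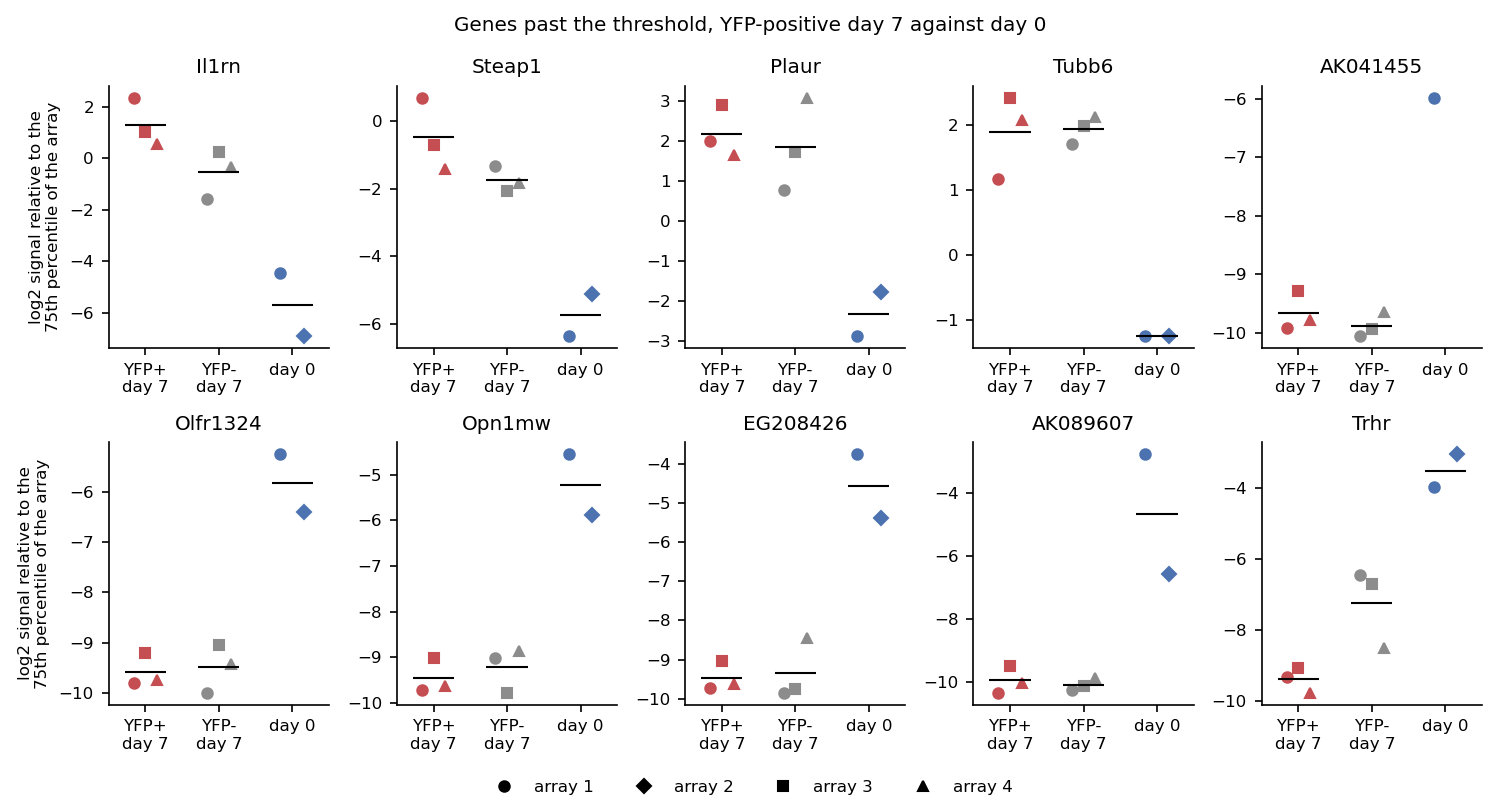
Log2 signal relative to the 75th percentile of the array (y axis) for the 10 genes past the threshold, in YFP-positive day 7, YFP-negative day 7 and day 0 cells; each point is 1 array and each bar the group mean. The 4 genes in the upper row from the left lie higher on all YFP-positive day 7 arrays than on day 0, and the other 6 lie lower; AK041455 has a value on 1 day 0 array only.

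Promoter windows are shown for 3 of the 4 genes that rose past the threshold, and Tubb6 was not searched. They are RefSeq sequences on GRCm38.p6, 5′ to 3′ on the strand of the gene, from 250 bases before to 50 after a start site: Plaur at chr7:24462233-24462532 on the plus strand, the first of 2 Il1rn windows at chr2:24336610-24336909 on the plus strand and Steap1 at chr5:5749268-5749567 on the minus strand. Capitals mark matches to TGANTCA, the sequence that AP-1 factors bind, searched on both strands.
Plaur: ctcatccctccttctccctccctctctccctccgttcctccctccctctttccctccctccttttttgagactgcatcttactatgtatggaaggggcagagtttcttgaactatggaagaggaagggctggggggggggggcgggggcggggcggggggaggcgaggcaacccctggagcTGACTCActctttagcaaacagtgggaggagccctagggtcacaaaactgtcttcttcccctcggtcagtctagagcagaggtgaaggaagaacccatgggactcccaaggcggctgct
Il1rn: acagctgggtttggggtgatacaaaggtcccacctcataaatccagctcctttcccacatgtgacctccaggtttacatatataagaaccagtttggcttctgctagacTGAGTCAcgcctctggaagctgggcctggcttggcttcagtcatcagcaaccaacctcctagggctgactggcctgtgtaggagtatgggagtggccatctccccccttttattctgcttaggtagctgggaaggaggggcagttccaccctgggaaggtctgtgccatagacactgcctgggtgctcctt
Steap1: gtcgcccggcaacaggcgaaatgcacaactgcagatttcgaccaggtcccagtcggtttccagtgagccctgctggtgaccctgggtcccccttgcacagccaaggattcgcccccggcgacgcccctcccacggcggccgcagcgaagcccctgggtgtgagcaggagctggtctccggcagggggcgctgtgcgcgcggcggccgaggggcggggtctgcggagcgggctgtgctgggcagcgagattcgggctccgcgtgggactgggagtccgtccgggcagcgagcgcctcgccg
The match in Plaur begins at position -69 from the start site and that in the first Il1rn window at position -141. Steap1 and a second Il1rn window held none. Among 32851 such windows 7.81 percent held the motif. None of the 4 windows held TATAAA, the CRE sequence TGACGTCA or TGACNNNGC, the core of the antioxidant response element, which 13.6, 1.79 and 12.4 percent of windows held. A match is a description of the letters and shows no binding, and no match says only that these letters are not in the window.

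The 6 genes that fell were dim. None was well above background on any of the 3 YFP-positive day 7 arrays, while all 6 were on each day 0 array with a value. Each fold is therefore a bound under this processing only, set by the dimmest probe that each YFP-positive array still measured well. Trhr, which encodes the receptor of thyrotropin-releasing hormone, read -9.34, -9.09 and -9.78 on YFP-positive day 7 arrays 1, 3 and 4, against -3.99 and -3.05 on the day 0 arrays. It was at least 17.4-fold lower (adjusted p = 0.000266, measured difference -5.88 ± 0.53, chromosome 15, 44066781 to 44066840 on mm9), and it passed in the absence of any 1 array. Opn1mw, the cone opsin gene, averaged -9.45 ± 0.38 in YFP-positive day 7 cells and -5.22 ± 0.94 at day 0 (SD, n = 3 and 2 arrays) and was at least 5.38-fold lower (adjusted p = 0.00132, chromosome X). Olfr1324, an odorant receptor gene, averaged -9.58 ± 0.33 in YFP-positive day 7 cells and -5.83 ± 0.82 at day 0 and was at least 3.52-fold lower (adjusted p = 0.0312, chromosome X). The other 3 have predicted or clone names: EG208426, now Iqcj, was at least 8.45-fold, AK089607 at least 7.85-fold and AK041455 at least 3.15-fold lower in YFP-positive day 7 cells (adjusted p = 0.00132, 0.0126 and 0.0266). AK041455 had a value on only 1 day 0 array, so its p assumes that day 0 varies like the other groups. Without day 0 array 1, the only one with a value for AK041455, just Trhr of the 6 passed. With normexp background correction none of the 6 passed, and Trhr differed by -2.10 (adjusted p = 0.423) and Opn1mw by -1.22. All 6 differences were then smaller than the bounds above. In the authors' deposited table Trhr was 16.1-fold lower at a false discovery rate of 4.36 percent, and Opn1mw and Olfr1324 were 3.10 and 2.48-fold lower at 15.3 percent. Each of these folds was also smaller than its bound here.

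The 4 genes were also far above day 0 in the other fraction of the same day, though they were chosen against the same day 0 arrays. In YFP-negative day 7 cells, set against the same day 0 arrays, Plaur differed by 4.18 ± 0.58 (adjusted p = 0.0137), Tubb6 by 3.19 ± 0.42 (0.0136), Il1rn by 5.14 ± 1.05 (0.127) and Steap1 by 4.00 ± 0.82 (0.134). In all 14 genes passed there (0.0525 percent). Between the fractions at day 7, YFP-positive minus YFP-negative, the differences were 0.32 ± 0.52 for Plaur, -0.053 ± 0.38 for Tubb6, 1.85 ± 0.94 for Il1rn and 1.26 ± 0.74 for Steap1. No gene passed in that comparison by limma (0 of 26665, with 1410 at an unadjusted p under 0.05 and a smallest adjusted p of 0.14). Il1rn was nevertheless higher on every YFP-positive array than on every YFP-negative one, at 2.35, 1.01 and 0.55 against -1.57, 0.25 and -0.32, an order that 4.27 percent of all genes showed with YFP-positive cells higher. Steap1 overlapped between the fractions, at 0.69, -0.71 and -1.40 on YFP-positive and -1.32, -2.07 and -1.83 on YFP-negative arrays.

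Day 7 was set against the earlier and later YFP-positive cells. The 4 genes were already above day 0 on every YFP-positive array of day 3, where Plaur read 2.05, 1.54, 1.12 and 1.58 on arrays 1 to 4 and Il1rn 1.29, 1.37, -1.0 and 1.87. These genes were chosen against the same day 0 arrays, so low readings there would carry over to every day. At day 14 Plaur read 1.88 and 1.61 and Il1rn 1.39 and 0.97 on arrays 1 and 2. Day 7 minus day 3 was 0.60 ± 0.48 for Plaur, 0.42 ± 0.88 for Il1rn, 0.30 ± 0.69 for Steap1 and 0.18 ± 0.36 for Tubb6, and none of these passed. Day 14 minus day 7 was -0.86 ± 0.42 for Tubb6 (adjusted p = 0.827) and between -0.43 and 0.34 for the other 3. No gene passed between days 7 and 3 by limma (1203 at an unadjusted p under 0.05), and 9 passed between days 14 and 7 (0.0338 percent), none of them among the 10 genes above.

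**Figure D2:**
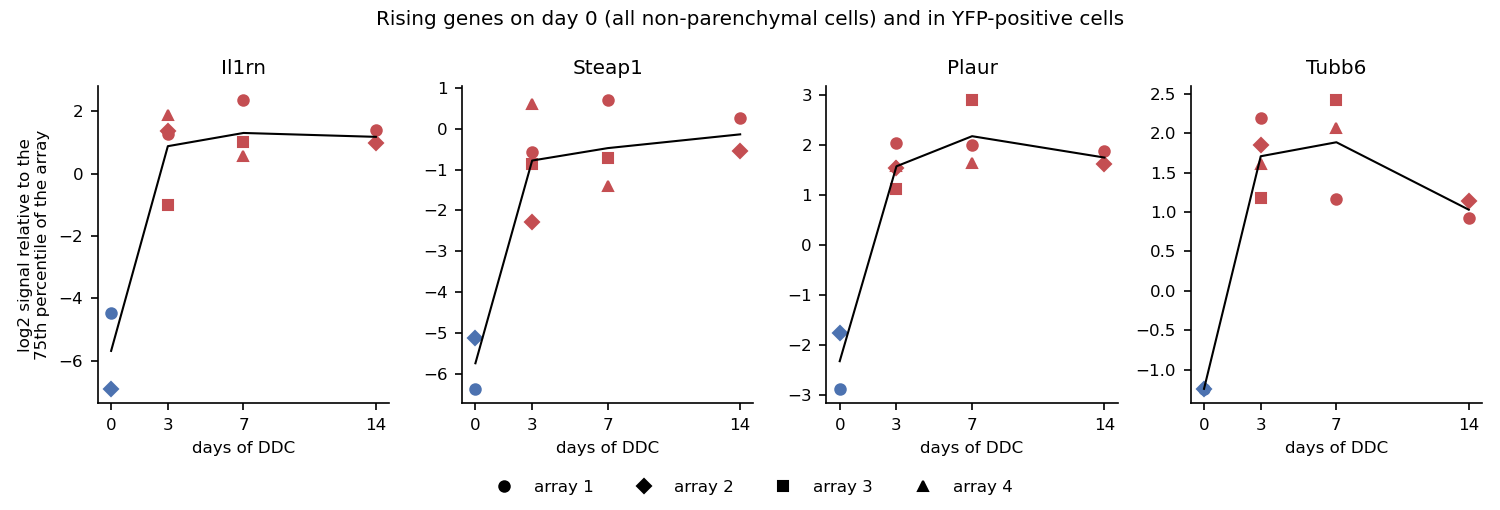
Log2 signal relative to the 75th percentile of the array (y axis) against days of DDC (x axis) for the 4 genes that rose by day 7; day 0 is the unsorted non-parenchymal cells on chow, days 3, 7 and 14 are YFP-positive cells, each point is 1 array and the line joins group means. The means at days 3, 7 and 14 lie close together and far above day 0 for each gene. The genes were chosen at day 7 against these same day 0 arrays.

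For the gene lists below, only Il1rn passed the threshold, so the other members are given by value, as counts of genes with all 3 YFP-positive day 7 arrays above or below both day 0 arrays, and as list medians relative to all genes. A count is read against the 11.2 percent above and 25.6 percent below found over all genes. A count with arrays centred on their median is read against 17 and 17.8 percent. The first 3 members of each list are given by rule, and further members were chosen after their values were seen.

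The bile duct and progenitor list ran higher, although no member passed. Of its 28 genes, 12 lay above both day 0 arrays on all 3 YFP-positive day 7 arrays and 1 below, and the relative median was 1.61. A fit with slides as fixed terms gave 0.08, and that fit draws on the other groups because no slide held both. Krt7, a partner keratin of Krt19 in cholangiocytes, read 3.62, 2.59 and 2.14 on YFP-positive day 7 arrays 1, 3 and 4, against 0.62 and -2.01 on the day 0 arrays (difference 3.48 ± 1.60, adjusted p = 0.425). Krt8, a keratin of all simple epithelia, read 4.47, 3.69 and 3.64, against 1.53 and 0.67 (2.83 ± 0.86, adjusted p = 0.24). Both keratins were higher on every sorted array, and highest on array 1. Cldn7, a tight junction claudin, read 3.23, 1.25 and 1.51, against -0.59 and -1.1 (2.84 ± 1.38, adjusted p = 0.446). St14, the membrane protease matriptase, read 1.56, -0.75 and -1.34, against -2.43 and -3.51 (2.79 ± 1.43, adjusted p = 0.468). Epcam, the epithelial adhesion molecule used to sort bile duct cells, read 4.38, 2.70 and 3.15, against 1.70 and 1.21. In each of these genes array 1 was the highest.

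The list was not even. Array 1 held the highest median of the 3 YFP-positive day 7 arrays, with medians of 2.33, 0.51 and 0.94 on arrays 1, 3 and 4, against 0.059 and -1.03 on the day 0 arrays. Sox9, a transcription factor of bile duct fate, differed by 0.45 ± 1.37, and Spp1, which encodes osteopontin, by 0.53 ± 0.75. The water channel gene Aqp1, which sinusoidal endothelium also expresses, differed by -0.48 ± 0.31, and the secretin receptor gene Sctr by -0.33 ± 1.64. None of these 4 passed. Against the other fraction the same list stood further apart, since 19 of 28 genes were higher on all YFP-positive than on all YFP-negative day 7 arrays (4.27 percent over all genes) and none lower, with a median difference of 2.30. For Krt19 that difference was 3.81 ± 1.35, for Cldn7 3.94 ± 1.24 and for Prom1, which marks progenitors, 3.96 ± 1.68, and none passed.

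**Figure D3:**
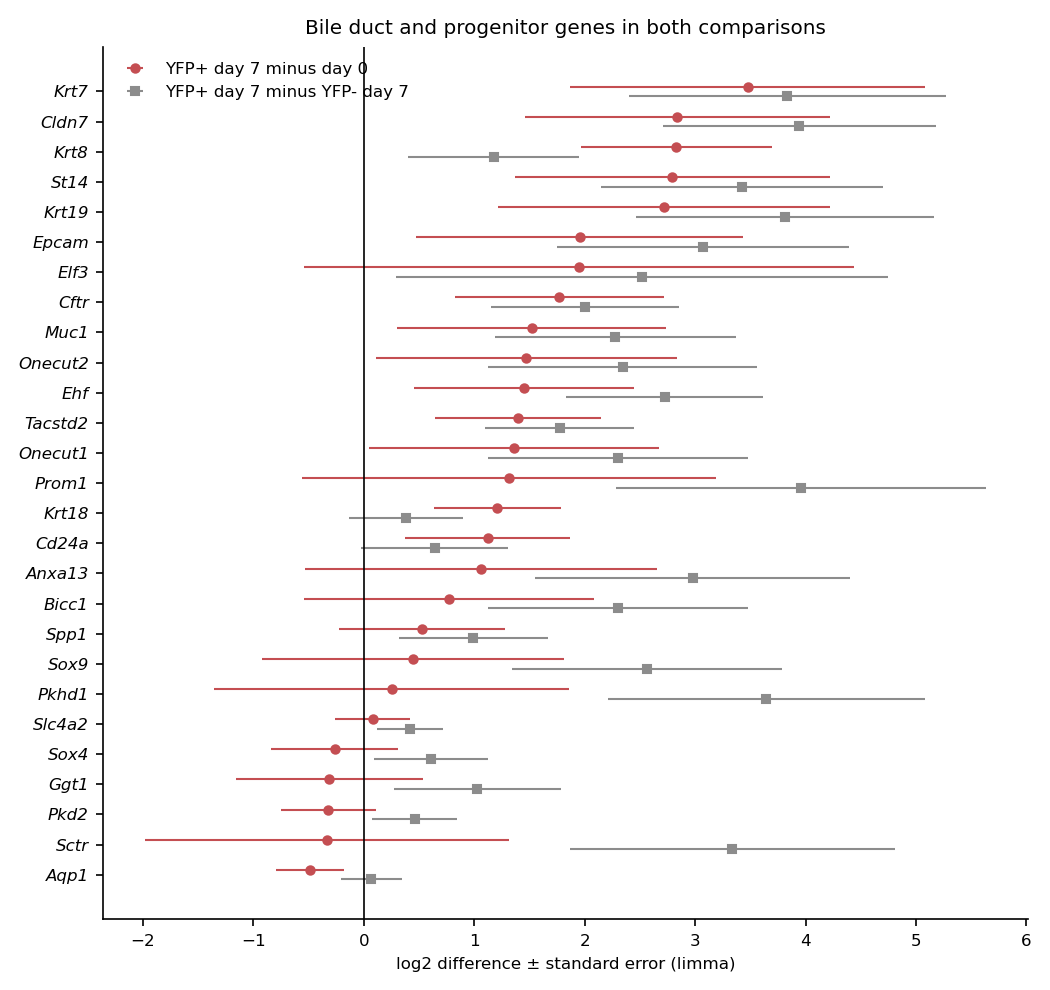
Log2 difference with its standard error (x axis) of 27 of the 28 bile duct and progenitor genes, YFP-positive day 7 minus day 0 as circles and YFP-positive day 7 minus YFP-negative day 7 as squares. Krt7, Cldn7, Krt8, St14 and Krt19 lie furthest to the right against day 0, and for 19 of the 28 all YFP-positive arrays were above all YFP-negative ones; no gene of the list passed the threshold in either comparison.

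Epithelial junction genes ran the same way, with 8 of 22 above both day 0 arrays, none below and a relative median of 1.90 (0.21 with slides as fixed terms). Cdh1, which encodes E-cadherin, read 2.99, 1.48 and 1.18 on YFP-positive day 7 arrays 1, 3 and 4, against -0.0081 and -0.33 on the day 0 arrays. Cldn3 read 1.65, -0.059 and -0.33, against -0.87 and -1.11. Cldn4 was split, at 1.84, 1.08 and -3.14, against -2.86 and -3.12, so that array 4 was below both day 0 arrays. The motile cilium list stayed near the rest of the genes, with 2 of 19 above, 3 below and a relative median of 0.54. Foxj1, the master factor of motile cilia, read 3.84, 1.27 and 1.67, against 0.66 and -0.54 (2.21 ± 1.62, adjusted p = 0.61). The ciliary factors Rfx2 and Rfx3 differed by 0.76 ± 2.02 and 0.64 ± 0.80, and of the dynein genes only Dnahc11, now Dnah11, was higher on all 3 arrays (2.71 ± 0.99, adjusted p = 0.323).

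Stellate cell genes did not separate the groups. Of 18 genes 2 lay above both day 0 arrays and none below. Lrat, the enzyme that stores vitamin A in stellate cells, read -2.29, -0.19 and -1.97 on YFP-positive day 7 arrays 1, 3 and 4, against -3.47 and -1.31 on the day 0 arrays, while the YFP-negative day 7 arrays read 1.44, 0.56 and 0.93. Reln and Ngfr differed by -0.54 ± 1.27 and -1.04 ± 1.18 from day 0, and both were higher on array 3 than on arrays 1 and 4, as was Pdgfrb, the platelet-derived growth factor receptor of pericytes, at -3.70, 1.53 and -3.01, against -0.16 and 0.40. Between the fractions the list median was -1.81, with 3 of 18 genes lower on all YFP-positive arrays (5.06 percent over all genes).

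Of 22 matrix and myofibroblast genes, 11 were below both day 0 arrays and 2 above, and centred on array medians 9 were below and 4 above. Col1a1, the chain of fibrillar type I collagen, differed by -1.42 ± 1.87, Col1a2 by -1.37 ± 1.23 and Col3a1 by -0.91 ± 1.58. Tagln, a smooth muscle actin-binding protein, read -1.07, 0.11 and -1.14 on YFP-positive day 7 arrays 1, 3 and 4, against 2.33 and 0.71 (-2.22 ± 0.79, adjusted p = 0.308). Fn1, which encodes fibronectin, lay on the other side at 3.72, 4.51 and 4.11, against 1.12 and 0.094 (3.51 ± 1.08, adjusted p = 0.241). The 17 basement membrane genes were divided by chain, with 3 above and 9 below. Lamb3, which with Lama3 is part of the epithelial laminin of anchoring junctions, differed by 3.13 ± 1.69 and was higher on all 3 arrays, whereas Lama3 itself differed by -3.48 ± 1.57 (adjusted p = 0.415). Lama1, well above background on 2 YFP-positive and 1 day 0 array, and Lama2 differed by 1.16 ± 1.61 and -1.08 ± 0.70, and Lama4, the laminin chain of vessels, by -1.92 ± 0.72 (adjusted p = 0.331).

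Endothelial genes ran lower throughout. All 26 lay below both day 0 arrays on all 3 YFP-positive day 7 arrays, and 24 did when arrays were centred on their median, with a relative median of -1.23. Every member kept its sign in all 16 other settings. Settings that only left out arrays could not change a sign, because the groups did not overlap. Pecam1, the junction protein CD31, read 1.69, 1.91 and 2.02 on YFP-positive day 7 arrays 1, 3 and 4, against 3.53 and 3.64 on the day 0 arrays (-1.71 ± 1.04, adjusted p = 0.539). Stab2, a scavenger receptor of sinusoidal endothelium, read 2.91, 3.22 and 2.97, against 4.56 and 4.77. Its relative Stab1 read 2.81, 3.08 and 2.90, against 3.89 and 4.31. The 3 sorted arrays lay close together and below both day 0 arrays for each of these genes. Wnt2, a Wnt ligand of central sinusoids, read 1.47, 1.23 and 2.38, against 3.90 and 3.13 (-1.83 ± 0.73, adjusted p = 0.368). Mmrn2, an endothelial matrix protein, had the smallest p of the list (-1.98 ± 0.67, adjusted p = 0.286). On all 3 YFP-positive day 7 arrays 25 of the 26 genes were well above background, and the other, Mmrn1, was on some of them only. Against YFP-negative day 7 cells the list median was -0.12, with no gene apart in either direction.

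**Figure D4:**
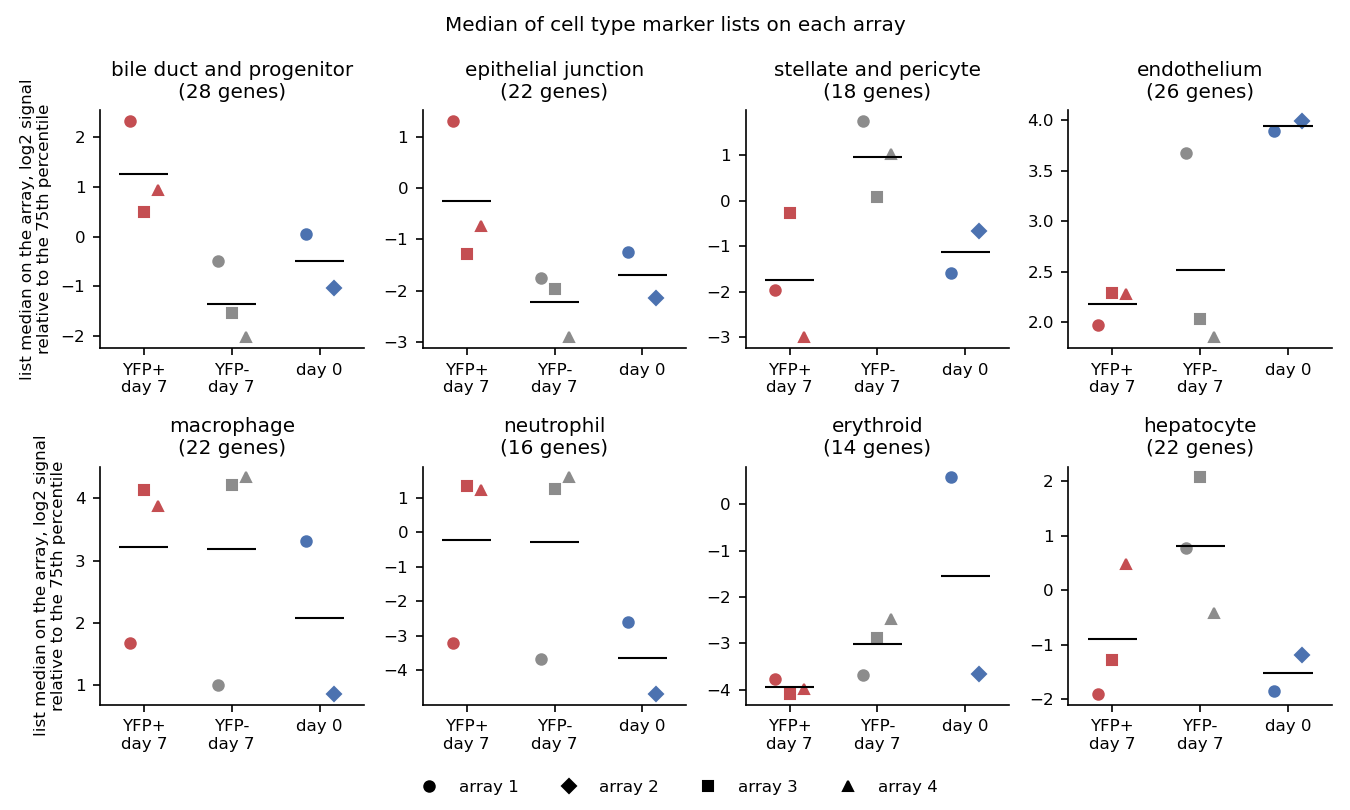
Median of each cell type marker list on each array (y axis, log2 signal relative to the 75th percentile of the array) in YFP-positive day 7, YFP-negative day 7 and day 0 cells; points are arrays and bars group means. Endothelial medians of all YFP-positive day 7 arrays lie below both day 0 arrays and bile duct medians above, and macrophage and neutrophil medians are higher on arrays 3 and 4 of both day 7 fractions than on array 1.

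Leukocyte lists followed the split between array 1 and arrays 3 and 4. The macrophage list had a relative median of 1.94, yet 1 of 22 genes was above and 2 were below both day 0 arrays, and with array 1 as the only YFP-positive array the median was 0.14. The pan-macrophage gene Emr1, now Adgre1, read 0.57, 4.17 and 4.12 on YFP-positive day 7 arrays 1, 3 and 4, against 2.82 and 0.062 on the day 0 arrays. The Kupffer cell lectin gene Clec4f read 1.87, 3.65 and 3.4, against 3.22 and 0.70. Cd5l, a secreted Kupffer cell protein, read 4.60, 5.64 and 5.62, against 5.18 and 3.66. Each of the 3 was also higher on day 0 array 1 than on array 2. Among 16 neutrophil genes 4 were above and none below, and the relative median of 3.66 was -0.03 with array 1 alone. S100a8, a calprotectin subunit, read -2.95, 3.31 and 3.73, against 0.068 and -8.03. Its partner S100a9 read 0.16, 5.52 and 5.54, against 4.38 and -0.98. The granule gene Ngp read -7.02, 0.64 and 1.66, against -2.80 and -6.75. On array 1 each of the 3 was below day 0 array 1. In the lymphoid list 1 of 22 genes was above and 2 below, and the T cell receptor genes Cd3e and Cd3d differed by 0.58 ± 1.38 and 0.33 ± 1.90.

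Red cell genes lay lower, with 9 of 14 below both day 0 arrays, none above and a relative median of -3.22. Hba-a1, an alpha globin, read -1.67, 1.48 and 1.57 on YFP-positive day 7 arrays 1, 3 and 4, against 6.78 and 5.20 on the day 0 arrays (-5.52 ± 1.68, adjusted p = 0.24). Hbb-b1, a beta globin now listed as Hbb-bt, differed by -5.98 ± 2.01 (adjusted p = 0.284) and Alas2, the erythroid enzyme that starts heme synthesis, by -6.85 ± 2.46 (adjusted p = 0.315). Globin genes are near-identical copies, so their probes may share signal. The list median was -3.76, -4.08 and -3.98 on YFP-positive day 7 arrays 1, 3 and 4, against 0.57 and -3.65 on day 0 arrays 1 and 2. Day 0 array 1 thus carried most of the difference, and without it the relative median was -0.87.

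Hepatocyte genes showed no common direction, with 3 of 22 above, 1 below and a relative median of 0.79. Alb, which encodes albumin, read 4.33, 4.02 and 4.50 on YFP-positive day 7 arrays 1, 3 and 4, against 4.37 and 3.78 on the day 0 arrays, and overlapped between the groups. The transthyretin gene Ttr differed by 0.91 ± 1.39 and Apoa1, of high density lipoprotein, by 0.46 ± 1.67. In the fetal liver list of 11 genes 1 was above and 5 below. Afp, the fetal counterpart of albumin, read -4.17, -2.52 and -2.83, against -5.52 and -5.73 (2.45 ± 1.53, adjusted p = 0.55), and the imprinted genes H19 and Igf2 differed by 0.45 ± 1.22 and -3.07 ± 1.34.

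Genes of cell division ran higher, although none passed. Of 22 mitosis genes 14 lay above both day 0 arrays and 1 below, 12 had an unadjusted p under 0.05 with a higher mean (3.63 percent over all genes), and the median of the differences relative to all genes was 2.29. Mki67, the proliferation antigen Ki-67, read 3.47, 1.71 and 2.76 on YFP-positive day 7 arrays 1, 3 and 4, against 1.01 and 0.28 on the day 0 arrays (2.01 ± 0.67, adjusted p = 0.278). Top2a, which untangles replicated chromosomes, read 2.31, -0.35 and 0.69, against -2.19 and -1.06. Ccnb1, cyclin B1, read -0.94, -0.78 and 0.21, against -4.29 and -3.01. All sorted arrays were above day 0, with array 1 or array 4 the highest. Aurkb, the kinase of the chromosomal passenger complex, came nearest to the threshold at -2.40, -4.05 and -2.68, against -8.05 and -9.85 (adjusted p = 0.0799). Neither day 0 array was well above background for it, so under this processing Aurkb was at least 26.7-fold higher. Bub1, a spindle checkpoint kinase, differed by -0.83 ± 0.86, and was the 1 member below.

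Of 20 DNA replication genes 15 were above and none below, and the means of all 20 were higher. Pcna, the sliding clamp of DNA polymerase, read 3.75, 3.86 and 3.81, against 3.21 and 3.35. Mcm2, of the replicative helicase, read -0.87, -1.38 and -1.50, against -1.37 and -1.89, and its partner Mcm3 differed by 0.30 ± 0.40. Of these first 3 members only Pcna did not overlap between the groups. Larger differences belonged to Cdt1, the licensing factor (2.97 ± 0.66, adjusted p = 0.13), Tk1, thymidine kinase (3.05 ± 0.82, adjusted p = 0.184) and Gins1, which joins that helicase (2.59 ± 0.68, adjusted p = 0.176). Between the fractions at day 7 the median differences were 0.15 for mitosis and 0.59 for replication, with none of 22 and 2 of 20 genes higher on all YFP-positive arrays. The mitosis list median was -0.20, -2.20 and -1.21 on YFP-positive day 7 arrays 1, 3 and 4, against -2.22 and -2.24 on the day 0 arrays, so array 1 held the highest value and array 3 lay at the day 0 level.

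Among 20 targets of NRF2, the factor that turns on defence against electrophiles, 15 were above and 1 below. Nqo1, a quinone reductase, was the 1 below, at 0.59, 0.60 and 1.34 on YFP-positive day 7 arrays 1, 3 and 4, against 2.14 and 1.73 on the day 0 arrays. Gclc and Gclm, the subunits of the enzyme that limits glutathione synthesis, differed by 0.48 ± 0.32 and 0.52 ± 1.11. Gsta1, an alpha class glutathione S-transferase, read 2.03, 1.78 and 3.64, against -1.1 and -0.36, while the YFP-negative day 7 arrays read 4.92, 4.87 and 4.44. Several transferases read lower in YFP-positive than in YFP-negative cells, with Gstm1 differing by -1.67 ± 0.47, Gsta1 by -2.26 ± 0.78 and Gstm3 by -2.94 ± 0.76 between the fractions, none of which passed. Hmox1, heme oxygenase, read 1.17, 4.10 and 3.79, against 0.79 and 0.91, and was high on the 2 arrays with high leukocyte markers, whose part was not tested.

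The 8 genes of heme synthesis stayed close to day 0, with 1 above, 1 below and a relative median of 0.27. Alas1, the rate-limiting enzyme outside red cells, read -0.78, -1.09 and -1.29, against -1.55 and -1.68, and Alad, the enzyme after it, differed by -0.56 ± 0.73. Fech, the enzyme that DDC blocks, read 1.74, 1.03 and 1.85 on YFP-positive day 7 arrays 1, 3 and 4, against 4.30 and 1.75 on the day 0 arrays, where array 1 was far above array 2, as it was for the red cell genes. Of 14 bile acid transport genes 4 were above and 2 below. Slc10a1, Abcb11 and Abcc2, hepatocyte carriers of bile acids and conjugates, differed by -1.21 ± 0.92, 2.21 ± 1.45 and 0.090 ± 0.68. Slc10a2, the bile acid carrier of cholangiocytes and ileum, read -1.64, -2.31 and -6.49, against -9.32 and -7.24, and only 1 of the day 0 arrays was well above background, so no difference is given.

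Inflammatory signals also ran high. Of 24 measured genes 12 were above and 3 below, and 10 had an unadjusted p under 0.05 with a higher mean (3.63 percent over all genes). The relative median was 2.14, between 1.41 and 2.23 over the other settings. Il1rn, above, was the 1 that passed. The neutrophil attractant gene Cxcl1 read 3.89, 2.51 and 2.24 on YFP-positive day 7 arrays 1, 3 and 4, against 1.24 and 1.73 on the day 0 arrays. Its relative Cxcl5 read 3.46, 2.15 and 1.44, against -6.92 and -4.92. Cxcl5 had the largest difference of the list at 8.27 ± 1.46, outside the threshold (adjusted p = 0.0679), and both genes were highest on array 1. Ccl2, the monocyte attractant, read 3.28, 3.21 and 1.16, against -1.88 and -1.54 (4.26 ± 0.78, adjusted p = 0.0799). Lcn2, which withholds iron from bacteria, read 2.03, 0.41 and 0.33, against -3.81 and -5.27 (adjusted p = 0.209). The groups were apart for both. Among receptors, Tnfrsf12a, which binds the progenitor mitogen TWEAK, read 2.26, 0.82 and 1.07, against -0.35 and -0.95, whereas its ligand gene Tnfsf12 differed by -0.61 ± 0.54. Ltb, a lymphotoxin subunit, differed by 3.13 ± 1.13 (adjusted p = 0.315) and its receptor gene Ltbr by -0.18 ± 0.31. The interferon-induced chemokine genes Cxcl9 and Cxcl10 were among the 3 below. Cxcl9 read -1.35, -1.36 and -1.52, against -0.022 and 1.02, and Cxcl10 differed by -1.81 ± 1.12. Of 16 interferon response genes 11 were below and none above (7 with arrays centred on their median), with Ifit1, Ifit2 and Ifit3 differing by -1.19 ± 1.0, -1.39 ± 0.65 and -2.50 ± 0.90.

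Signalling lists were more divided. In the Notch list of 17 genes 1 was above and 9 below, 7 with arrays centred on their median. Notch1 differed by -1.56 ± 0.67 and Notch3 by -2.73 ± 1.13, while Notch2, the receptor known for bile duct formation, read 4.2, 4.32 and 4.24, against 3.07 and 2.24 (1.60 ± 0.78, adjusted p = 0.445) and was the 1 above. The ligand gene Dll4, a tip cell ligand of vessels, read -3.06, -2.94 and -3.29, against -0.58 and -0.37 (-2.62 ± 0.66, adjusted p = 0.163), and Jag1, the bile duct ligand, differed by 0.070 ± 0.71. The endothelial markers moved with these genes, and their part was not tested. In the Wnt list 2 of 22 were above and 11 below (2 and 7 with arrays centred on their median), with Wnt7a and Wnt7b at -1.13 ± 0.73 and -0.33 ± 0.58, and Wnt10a at -2.47, -5.13 and -3.06, against -6.01 and -6.77 (2.84 ± 1.22, adjusted p = 0.395). The Hedgehog list had none of 14 above and 5 below (3 when centred), with Shh, Ihh and Dhh differing by -1.55 ± 2.48, 0.064 ± 0.66 and -0.47 ± 1.64 and the receptor gene Ptch1 by -1.24 ± 0.50.

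In the TGF-beta list 7 of 17 genes were above and 4 below. The ligand genes Tgfb1, Tgfb2 and Tgfb3 differed by 0.063 ± 0.90, -0.46 ± 0.86 and 0.59 ± 0.59. Itgav and Itgb6 encode the chains of an epithelial integrin that frees TGF-beta from its latent form. Itgav read 3.29, 2.67 and 2.52, against 1.08 and 0.34 (adjusted p = 0.318). Itgb6 read 2.16, 1.13 and -0.51, against -1.77 and -2.76 (adjusted p = 0.403). Growth factor genes had 3 of 19 above and 4 below, with Egf, Tgfa and Areg at -0.96 ± 0.50, -0.25 ± 0.68 and -0.36 ± 1.12, though Areg was not well above background on any YFP-positive array, and with Met, the receptor of hepatocyte growth factor, at 2.56, 1.52 and 1.21, against -0.35 and -0.77 (2.32 ± 0.89, adjusted p = 0.349). In the Hippo list 4 of 16 were above and 6 below (5 and 3 with arrays centred on their median), with Yap1, Wwtr1 and Tead1 at -0.74 ± 0.60, -1.05 ± 0.67 and -0.35 ± 0.82. Immediate early genes had 4 of 14 above and 2 below. Fos, Fosb and Fosl1, subunits of AP-1, differed by 0.72 ± 0.68, -0.99 ± 1.15 and -4.72 ± 0.98, of which Fosl1 was well above background on 1 of 3 YFP-positive arrays (adjusted p = 0.111). Myc, the growth-promoting transcription factor, read 2.01, 2.34 and 2.05, against -0.67 and -0.52 (2.72 ± 0.51, adjusted p = 0.0803).

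**Figure D5:**
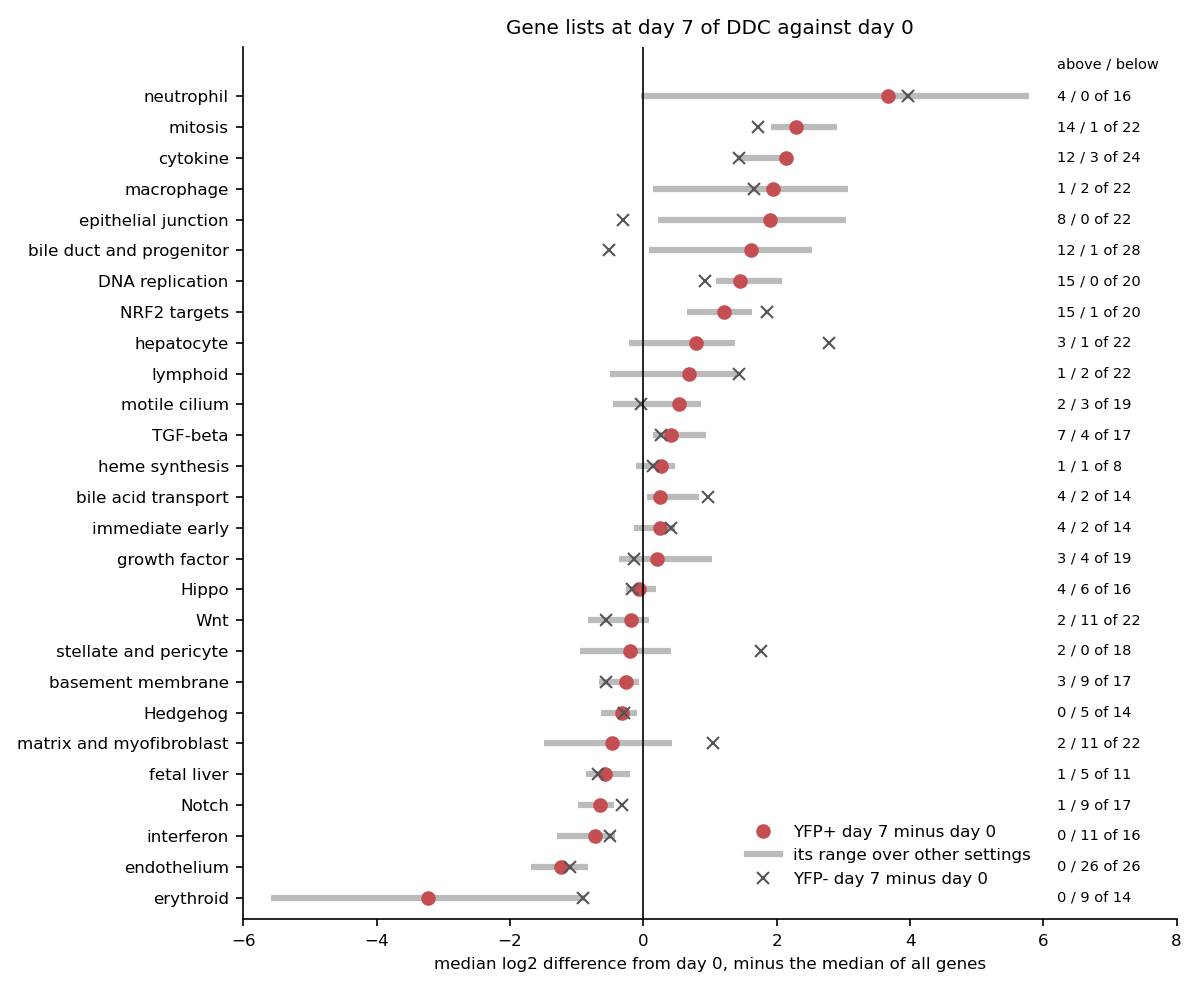
Median log2 difference of each gene list from day 0 minus the median of all genes (x axis), for YFP-positive day 7 cells as circles with the range over 16 other settings as grey bars, and for YFP-negative day 7 cells, against the same day 0 arrays, as crosses; numbers at the right count genes with all YFP-positive day 7 arrays above or below both day 0 arrays. Neutrophil, mitosis and cytokine lists have the highest medians for YFP-positive cells and erythroid and endothelial lists the lowest. The ends of the wide neutrophil, macrophage and erythroid bars come from fits that left out arrays. Bile duct and epithelial junction bars are also wide, and their low ends come from the fit with slides as fixed terms.

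Set beside the other fraction, list medians relative to all genes lay on the same side of 0 for mitosis (2.29 in YFP-positive and 1.72 in YFP-negative day 7 cells), cytokines (2.14 and 1.44) and endothelium (-1.23 and -1.1). They lay on opposite sides of 0 for bile duct genes (1.61 in YFP-positive and -0.51 in YFP-negative day 7 cells), epithelial junctions (1.90 and -0.31), stellate cells (-0.20 and 1.77) and matrix (-0.47 and 1.04). Hepatocyte genes were at 0.79 in YFP-positive and 2.78 in YFP-negative day 7 cells. The YFP-positive stellate median was on the other side of 0 in 4 of 16 other settings, between -0.95 and 0.42, and the matrix median in 1, at 0.43 with the replicate block. Both comparisons share the day 0 arrays, and no gene passed between the fractions.

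Per the authors' deposited table, 4099 of 40022 probes had a false discovery rate under 5 percent for YFP-positive day 7 cells against day 0 (10.2 percent). Krt19 was 7.09-fold higher in the authors' deposited table (1 percent), Cxcl5 428-fold (0 percent) and Myc 8-fold (0 percent), none of which passed by limma here. Endothelial Kdr was 3.37-fold lower and Dll4 5.29-fold lower in the authors' deposited table (3.24 and 1.76 percent). How those rates were computed is not given in the sources used here. The series holds 4 day 0 and 4 YFP-positive day 7 samples, of which 2 and 3 were used here. The authors' values may therefore rest on other samples as well as on another test.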

How the data were processed

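RNA of sorted liver cells was amplified, labelled with Cy3 and hybridised to 1-colour Agilent mouse arrays (design 014868), per the labels' protocols. The authors deposited 1 scanner file per array, and its intensity (processed signal) was background-subtracted by Agilent Feature Extraction (10.5.1.1 per the file headers, 9.53 per the submitters' processing notes). The authors also deposited a table with 2 scores per probe, a signed linear fold change against day 0 and a false discovery rate in percent, whose test is not given in the sources used here. Here control spots and outlier flags were left out, each array's 75th percentile was taken from its log2 intensities, probes not well above background on 2 or more arrays were dropped, and the probe with the highest mean stood for a gene (8651 of 26665 genes had several). limma 3.58.1 in R 4.3.3 was fitted to all 20 arrays in 7 groups, with Benjamini-Hochberg adjustment over all genes and a threshold of 0.05. Missing spots (296 genes) were dropped from the fit. The number of arrays limits the precision. In simulated data of these groups with 26369 genes, 18 percent of genes changed by 2 on the log2 scale were called. The share was 16 percent for a change of -2, 48 percent for 4 and 82 percent for 6, with 4 false calls. Most changes of 2 were thus missed, so a difference near that size that did not pass is not evidence of no change.

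Named genes were those past the threshold, the first 3 members of each of 27 gene lists (502 of 506 genes measured), Ptprc and Krt19, and any others are said to be chosen after their values were seen. The groups, the gene lists and the naming rule were chosen with earlier results of these data known. Probe positions are those of the files, on mm9, and no annotation of that build was used, so exons and UTRs are not given. Of all genes, 16250 matched RefSeq by accession, 2388 by symbol and 859 by synonym, and 7168 matched none and kept the file's name. Symbols were updated for 3173 genes. The Foxl1 level and some list members are not reported here, though the members count in their lists. Alternatives were background correction by normexp (offset 50), quantile and median scaling, other probe filters, the mean of all probes, only the arrays compared, slide and replicate blocks, leaving out each array and, chosen after seeing the data, array 1 as the only day 7 array. A group left with 1 value was assumed to vary like the other groups. The 7 slides held no pair of YFP-positive day 7 and day 0 arrays, so no value within a slide could be given.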

Additional observations from a re-analysis of the deposited data

Results flagged for a closer look

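Genes that passed in the YFP-positive fraction between days 14 and 7 were set apart because the difference between the days was tested directly. There were 9 of them by limma, 1 higher and 8 lower at day 14. Among the named ones, day 14 minus day 7 was -8.30 for Fgl2, a prothrombinase of macrophages and T cells, and -7.81 for Fam65b. It was -6.77 for Ifi27, an interferon-induced gene, -6.20 for Spata9 and -3.65 for Plcb1, a phospholipase C. The macrophage, neutrophil and lymphoid lists moved with them, with median day 14 minus day 7 differences of -2.34, -4.51 and -1.61, and their part was not tested. None of these 5 genes passed between YFP-positive day 7 cells and day 0.

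In the YFP-positive day 3 group, 1 of 4 arrays lay far from the others in 4 list medians. Array 4 had a stellate median of -2.46, against -0.44 on the nearest other array, a matrix median of -4.65, against -0.11, and a Notch median of -1.39, against 0.13. Array 2 had a Hedgehog median of -2.60, against -3.4 on the nearest other. This was the only group with 4 arrays, and 34 checks were made in it, on named genes past the threshold and on list medians. Chance sets apart about 1 in 20 checks, but checks on the same 4 arrays are not independent. These arrays also add to the spread that limma shares over all comparisons.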

How the results depend on the processing

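Between YFP-positive day 7 cells and day 0 the 10 calls became 2 with normexp background correction, 37 with quantile normalization (9 of the 10 among them), 15 with arrays centred on their median, 7 with the mean of all probes (1 higher and 6 lower), 0 with only the 5 arrays compared, 0 with slides as fixed terms and 11 with slides as a random block. Leaving out 1 array gave 1 to 45 calls, with 1 without day 0 array 1 and 45, of which 39 were lower, without day 0 array 2. With array 1 as the only day 7 array, 8 genes passed, 3 of them among the 10, with the spread taken from the other groups. Between the fractions at day 7 the 0 calls became 0 to 4 without 1 array. For YFP-negative day 7 cells against day 0 the 14 calls became 5 with normexp, 0 with only the arrays compared, 0 with the slide block, 3 with array 1 alone and 0 to 39 without 1 array. Between days 7 and 3 there was 1 call with the slide block and 0 to 1 without 1 array. Between days 14 and 7 the 9 calls became 0 with normexp, 2 with quantile normalization, 1 with the mean of all probes, 0 with only the arrays compared, 5 with the slide block and 2 to 54 without 1 array. The cause was not tested. Fewer arrays were left wherever arrays were dropped.

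With the replicate block, 3 genes passed between YFP-positive day 7 cells and day 0, all lower, 0 between YFP-negative day 7 cells and day 0, and 4 between days 14 and 7. Same-numbered arrays of the 2 day 7 fractions correlated at 0.39, 0.0337 and 0.00535 in their deviations from the group means, so the numbers were not taken to pair the samples.

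No gene past the threshold changed direction, which leaving out arrays could not have brought about, because the groups did not overlap. Over the other settings 87 of their values still passed and 72 did not. Of the list medians, 378 stayed within the SD between the 3 YFP-positive day 7 arrays and 54 moved beyond it. Centring arrays on their median or using only the arrays compared could not move these relative medians. The neutrophil median went from 3.66 to 1.60 without day 0 array 2 and still counted as within.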

Other observations

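Several genes outside the lists had low p-values in YFP-positive day 7 cells against day 0 without passing, and are given as values chosen after they were seen. Srd5a2, a steroid 5 alpha-reductase, read 2.45, -0.037 and -0.73 on YFP-positive day 7 arrays 1, 3 and 4, against -7.83 and -9.84 on the day 0 arrays, neither of which was well above background. Under this processing it was at least 325-fold higher (adjusted p = 0.111 by limma). Litaf, a regulator of endosomes, read 3.12, 3.66 and 3.53, against 1.59 and 1.56 (1.86 ± 0.32, adjusted p = 0.0548), with little spread in either group. Cd44, the hyaluronan receptor, read 3.24, 3.68 and 3.36, against 0.31 and -2.53 (4.53 ± 0.91, adjusted p = 0.101). Thbs1, the matricellular protein thrombospondin 1, read 1.53, 3.17 and 1.34, against -3.59 and -2.91 (5.26 ± 1.1, adjusted p = 0.111). All 3 sorted arrays were above both day 0 arrays in each of these genes. The acute phase gene Lrg1 differed by 2.13 ± 0.42, the squamous envelope gene Sprr1a by 4.27 ± 0.89, the calcium-binding S100a6 by 3.98 ± 0.80 and the serine protease inhibitor Serpinb1a by 3.32 ± 0.67. Steap4, a metalloreductase related to Steap1, differed by 3.05 ± 0.66 (adjusted p = 0.119). Apoc2, an activator of lipoprotein lipase, differed by 3.63 ± 0.68 (adjusted p = 0.0828).

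On the lower side, Ltbp4, which holds latent TGF-beta in the matrix, read 0.37, 0.44 and 0.60 on YFP-positive day 7 arrays 1, 3 and 4, against 2.90 and 3.77 on the day 0 arrays (-2.87 ± 0.62, adjusted p = 0.119). Tbx18, a transcription factor of mesenchyme, read -10.34, -9.22 and -9.62, against -4.34 and -4.54. No YFP-positive array was well above background, so under this processing it was at least 9.24-fold lower (adjusted p = 0.101). In the authors' deposited table it was 7.58-fold lower. Rnf165 read -5.63, -5.39 and -7.02 on YFP-positive and -0.35, -2.20 and -0.93 on YFP-negative day 7 arrays, against -0.20 and -1.63 on the day 0 arrays, so the YFP-negative arrays were nearer to day 0 (YFP-positive minus day 0 -5.10 ± 1.11, adjusted p = 0.119).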
